A study of Mus musculus with 16 samples.

Results

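The genes described here encode the nuclear part of the mitochondrial respiratory chain and of ATP synthase. They were chosen by symbol from the count table of a mouse mammary tumor study. A row was taken where its Entrez identifier maps to a symbol beginning with Nduf, Uqcr, Cox4 to Cox8 or Atp5, or to Sdha, Sdhb, Sdhc or Sdhd, outside the mitochondrial chromosome. Of the 99 family genes found in this way, 88 had at least 150 counts over the 15 tumors and are the members, out of 27179 genes in the table. The counts set the membership only through that minimum, and no treatment contrast was used. The smallest member was Sdhd with 152 counts, and the largest genes under the minimum were Cox7a1 and Ndufs6b with 75 counts each. The prefixes also bring in genes that are not subunits: the 8 complex I assembly factors Ndufaf1 to Ndufaf8, the gene copies Ndufb4b and Ndufb4c, and the pseudogene row Ndufs5-ps. The members fall into 7 complex I core genes, 31 complex I accessory genes, 8 complex I assembly factors, 4 complex II genes, 7 complex III genes, 14 complex IV genes and 17 complex V genes. Ndufa4 and its relative Ndufa4l2 were placed with complex IV.

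Complexes I to IV of the inner mitochondrial membrane pass electrons from NADH and succinate to oxygen, and complexes I, III and IV pump protons as they do so. Complex V, the ATP synthase, lets the protons flow back and makes ATP. Most subunits are encoded in the nucleus, translated in the cytosol and imported, while a small set of core subunits of complexes I, III, IV and V is encoded by mitochondrial DNA, so each of these complexes needs transcripts from both genomes. Complex II is wholly nuclear encoded and is also the succinate dehydrogenase of the citrate cycle. Nuclear subunit genes are known targets of the transcription factors NRF1, GABPA (an ETS family factor), YY1 and ESRRA.

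Bulk RNA was sequenced from 15 orthotopic mammary carcinomas, 3 in each of 5 groups, grown in female BALB/cJ mice of 8 to 10 weeks from transplants of F2 tumors of family F. All groups share the Trp53 null genotype of that 1 tumor family, so the tumors are transplants of a common origin rather than independent cancers. Mice were randomised at a tumor volume of 65 to 100 mm3 and tumors were collected on day 7. Sham mice received control IgG at 25 mg/kg, and the labels do not say whether the other groups did. Mice of the TGFbi group were dosed daily with 20 mg/kg of the TGF-beta inhibitor IPW-5371, those of the RT group received a focal dose of 10 Gy, and the TGFbi+RT group had both. The Triple group received inhibitor, radiation and an antibody to PD-L1, the ligand of an inhibitory T cell receptor, at 10 mg/kg weekly. The labels do not say which tumors come from which mouse or cage, so p-values measure the spread between these tumors.

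Tumor libraries held 11002869 to 17184023 counts (median 13302488), and the members took 0.371% to 0.537% of them. Trp53 transcripts were counted at 63.9 to 110 CPM (counts scaled to a common library total) in every tumor, and whether these reads lie in the deleted part of the gene was not analysed here. Libraries of Sham, TGFbi, TGFbi+RT and Triple 1 carry the code A2301 in their names, and those of RT and of Triple 2 and 3 carry A2304, so RT against Sham is also a comparison of codes, and only the Triple group holds both. TGFbi 3 and TGFbi+RT 3 are resubmitted libraries. TGFbi+RT 3 and Triple 2 stood apart from the other tumors on the leading principal component, which carried 46.8% of the variance. Most member medians are given below with and without these tumors, and most values of single genes only with them. Epithelial keratins and Epcam summed to 516 to 1570 CPM in the tumors. In bulk samples, fewer cells of a type and less RNA per cell cannot be told apart.

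RefSeq promoter windows (build GRCm38.p6, 250 bases before to 50 after the start site, both strands searched) were found for 71 of the 88 members. The NRF1 motif, the letters GCGCA and GCGC with any base between them, lay in the windows of 19 members, 26.8%, against 7.04% of 18460 genes of the table and 10.3% of the genes tested. The windows of 18 members (25.4%) held the ETS core CCGGAAG, against 12.7% of genes. YY1 letters AAGATGGC occurred in 11 members (15.5%), against 3.53%, and the ESRRA letters TCAAGGTCA in 2 members (2.82%), against 0.412%. The SP1 letters GGGGCGGGG were in 11 members (15.5%) and in 17% of genes. Among the genes tested the shares were 17.9% for ETS, 4.68% for YY1, 0.309% for ESRRA and 23.3% for SP1. So 4 of the 5 motifs were found in a larger share of members than of all genes or of the genes tested. The SP1 letters were found in a smaller share than in either. These are matches of letters and not measured binding sites.

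By complex, the NRF1 motif was found in 0 of 5 complex I core genes, 7 of 27 accessory genes, 2 of 3 complex II genes, 1 of 10 complex IV genes and 6 of 15 complex V genes. The stretches below show NRF1 matches of members from 4 complexes and the ESRRA match of Atp5g3, a subunit c gene, with the motif in capitals. Positions count from the start site as 0, so that -1 is the last base before it, and the sequences are written on the gene's own strand.
Sdha, chr13:74350276-74350305, minus strand, motif at -55 to -46: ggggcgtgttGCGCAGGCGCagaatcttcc
Sdhd, chr9:50603910-50603939, minus strand, motif at -79 to -70: ttcgctggggtGCGCACGCGCggtggcagc
Cox6a1, chr5:115349059-115349128, minus strand, motif at -162 to -153 and at -117 to -108: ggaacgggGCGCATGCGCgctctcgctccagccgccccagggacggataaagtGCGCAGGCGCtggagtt
Ndufb4, chr16:37654539-37654568, minus strand, motif at -191 to -182: agaagcagtGCGCACGCGCagaatacgcgg
Ndufa11, chr17:56717692-56717721, plus strand, motif at -60 to -51: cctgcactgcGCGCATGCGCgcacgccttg
Atp5h, chr11:115420041-115420070, minus strand, motif at -141 to -132: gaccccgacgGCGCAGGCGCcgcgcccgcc
Atp5g3, chr2:73911357-73911386, minus strand, motif at -52 to -44: ttacaaagTGACCTTGAgcgtcttcccccg
The Sdha and Ndufb4 windows held 3 NRF1 matches each, of which 1 is shown, and the Cox6a1 stretch holds 2.

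The YY1 matches had a common place. In the members, 9 of 11 lay downstream of the start site in the sense orientation (81.8%), against 268 of 700 matches in all windows (38.3%). The letters AAGATGGC contain ATG, the start codon of translation. Whether these matches are the starts of coding sequences was not tested, so their place is not read as a trait of YY1 sites. The stretches below show 5 of them, in genes of complex I and complex V, beginning 22 to 35 bases after the start.
Ndufa3, chr7:3617388-3617417, plus strand, motif at 22 to 29: caagaacAAGATGGCcgggagtaagtacag
Ndufs7, chr10:80249466-80249495, plus strand, motif at 24 to 31: cgaggccAAGATGGCggcgctggcgggtga
Ndufc1, chr3:51408911-51408940, minus strand, motif at 22 to 29: gcggaacAAGATGGCgccgtccgtagtgct
Atp5j2, chr5:145191496-145191525, minus strand, motif at 23 to 30: ggacttcAAGATGGCgtcactcggtgagta
Ndufs4, chr13:114388045-114388074, minus strand, motif at 35 to 42: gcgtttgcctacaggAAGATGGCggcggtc
Of the genes with an NRF1 match, Sdha and Cox6a1 are described with their values below, as is Ndufa3 of those with a YY1 match.

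Members differed widely in level when counts were divided by exon length. The median over members was 37 CPM per kb of exon, from 0.574 for Sdhd to 252 for Cox8a, a complex IV subunit. After Cox8a came Atp5b (246), which encodes the catalytic beta subunit of ATP synthase, Atp5g3 (246) and Atp5a1 (218), which encodes the alpha subunit. Class medians were 40.7 CPM per kb for complex I core genes, 29.7 for accessory genes, 56.9 for complex II, 69.8 for complex III, 63.1 for complex IV and 66.5 for complex V. The assembly factors, which build complex I without staying in it, had a median of 7.57 CPM per kb, and the highest of the 8, Ndufaf6, reached 13.1.

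Several low levels sat where reads are hard to assign to 1 gene. Exons of 7 members overlapped those of another gene over at least 25% of their length, and the median of these members was 7.43 CPM per kb. In 15 members at least 25% of the 50-base stretches of their transcripts also occurred in another gene's transcripts, and their median was 26.5. The 68 members with neither had a median of 41.5. These include Ndufb4b and Ndufs5-ps, which had no transcript to search, so their shared stretches are unknown. Of the exon bases of Sdhd, which encodes a membrane anchor of complex II, 90.8% overlapped another gene, while Sdhc, the other membrane anchor, stood at 93 CPM per kb with no overlap. Ndufa12 had 55.1% of its exon bases in such an overlap and stood at 2.32 CPM per kb. For Uqcr11, a complex III subunit under the minimum, the overlap was 95.4% and 2 counts were recorded over the 15 tumors. Of the 50-base stretches of Atp5l, which encodes subunit g of ATP synthase, 84.8% recurred in 14 other genes, and the gene had 402 counts. Ndufs5 had 619 counts and its pseudogene row Ndufs5-ps 2132. Ndufb4 had 1266 counts, against 3610 for Ndufb4b and 3613 for Ndufb4c. Levels of these genes and copies are therefore uncertain, since the treatment of shared reads is not given in the sources used here.

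**Figure D1:**
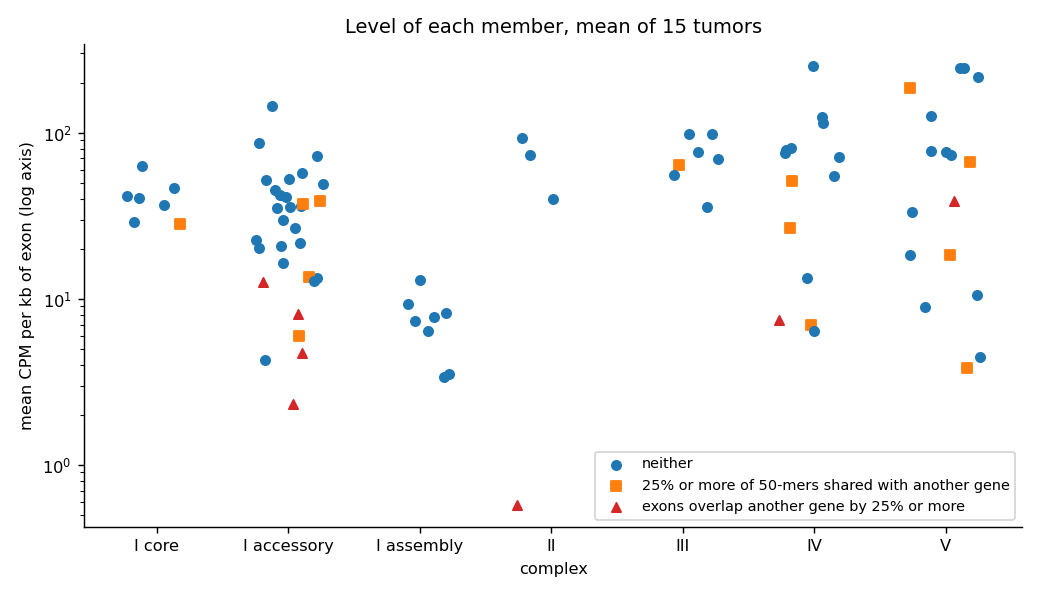
Mean CPM per kb of exon over the 15 tumors (log axis) for each member, by complex. Each point is a gene, with triangles for exon overlap of at least 25% with another gene and squares for at least 25% shared 50-base stretches. Circles are the other members, which include Ndufb4b and Ndufs5-ps, whose shared stretches are unknown. The lowest point is Sdhd at 0.574 and the highest Cox8a at 252, and all 8 assembly factors lie at or below 13.1.

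In each family of alternative isoforms given here, the most abundant isoform stood well above the rest. Subunit c, the proton-carrying ring of ATP synthase, is encoded by Atp5g1, Atp5g2 and Atp5g3, which stood at 4.48, 8.92 and 246 CPM per kb. Cox4i1 stood at 55.2 CPM per kb and its oxygen-dependent alternative Cox4i2 at 13.4. Cox6a1, the liver-type isoform, stood at 81.2, and the heart and muscle isoform Cox6a2 had 52 counts in all, 21 of them in Triple 2. Cox6b1 stood at 125 CPM per kb, and Cox6b2, known from testis, had 56 counts. The muscle and brown fat isoforms Cox7a1 and Cox8b had 75 and 38 counts. Their relatives Cox7a2 and Cox8a stood at 7.43 and 252 CPM per kb. Of the exon bases of Cox7a2, 48.9% overlapped another gene, so its level is uncertain. Cox7b2 and Cox8c had 0 counts in every tumor, which allows up to 3 counts over the 15 tumors, or 0.0146 CPM. Skeletal muscle markers summed to 1.44 to 4.01 CPM per tumor.

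The Sham tumors alone spanned most of the range of the module. Summed over the 88 members, Sham tumors 1, 2 and 3 had 4232, 5845 and 5031 CPM. The sums were 4257, 4580 and 4555 in TGFbi, and 4167, 5041 and 4676 in RT. They were 4270, 4240 and 3773 in TGFbi+RT, and 4624, 3551 and 4117 in Triple. Sham 1 thus lay among the treated tumors, while Sham 2 was the highest of all, 1.65 times Triple 2, the lowest. Of the 88 members, 48 had their highest value in Sham 2, and 23 had their lowest in TGFbi+RT 3 and 18 in Triple 2. The median member varied 1.88-fold between its highest and lowest tumor, and the SD of log2 CPM over the tumors had a median of 0.25 over members and 0.27 over genes at or above the lower quartile of member levels.

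Markers of other cells differed between the same tumors. The 5 fibroblast markers summed to 6231 CPM in Sham 1, against 315 in Sham 2 and 403 in Sham 3, and to 6348 in Triple 2, 6128 in RT 1 and 5613 in Triple 3. The 5 macrophage markers summed to 97.3 to 334 CPM in Sham and were highest in Triple 2 (1849) and TGFbi+RT 3 (1542). T cell markers summed to 62.8 CPM in Triple 2, 30.4 in Triple 1, 21.6 in TGFbi+RT 3 and at most 3.5 elsewhere. Adipocyte markers summed to 5.98 to 69.8 CPM in Sham, 27.2 to 233 in TGFbi, 5.34 to 82 in RT, 31.8 to 229 in TGFbi+RT and 82.5 to 150 in Triple. None of these lists had a marker at 0 in all tumors, but Adipoq, which defines adipocytes, was at 0 in all 3 Sham tumors. The tumors with the lowest member sums, Triple 2 and TGFbi+RT 3, were thus those with the highest macrophage sums, and the part of these cells in the results below was not tested.

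**Figure D2:**
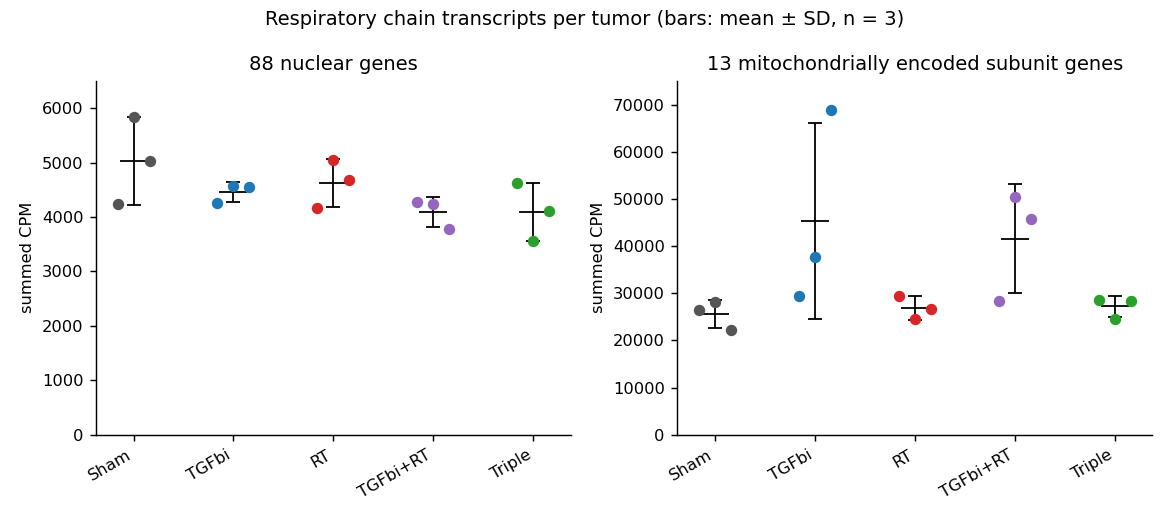
Summed CPM per tumor in the 5 groups for the 88 nuclear genes (left) and the 13 mitochondrially encoded subunit genes (right). Points are tumors and bars are means ± SD (n = 3). On the left Sham spans 4232 to 5845, and on the right TGFbi 3 reaches 68780 against at most 28210 in Sham.

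**Figure D3:**
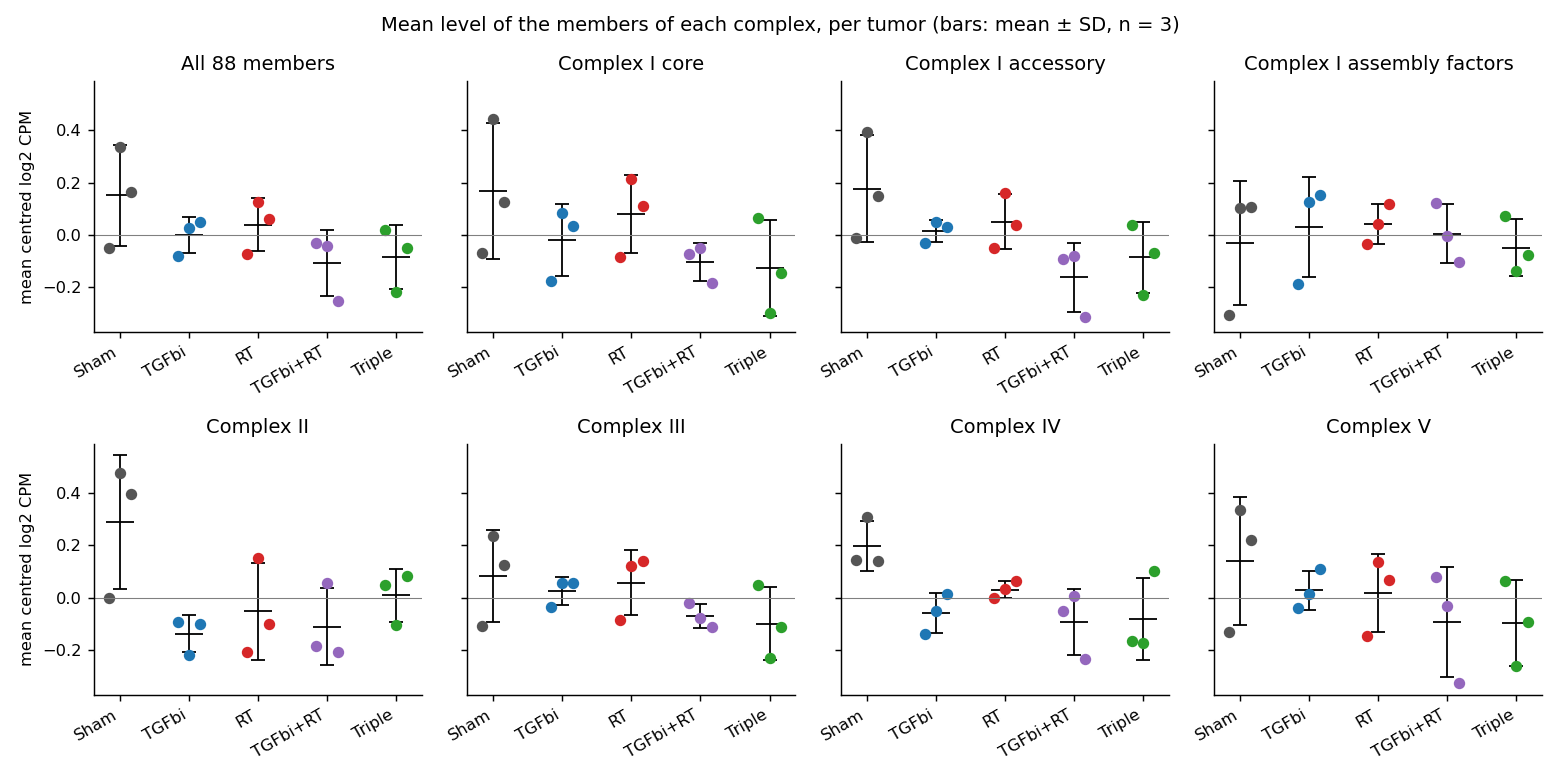
Mean over members of log2 CPM, each gene centred on its mean over the 15 tumors, for all 88 members and for each class. Points are tumors and bars are means ± SD (n = 3). Sham 2 has the highest value of the 88-member panel (0.34) and TGFbi+RT 3 the lowest (-0.25), and the Sham bar overlaps that of every other group in that panel.

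No member passed the test in any comparison when counts were fitted with edgeR's quasi-likelihood test and p-values were adjusted over the 16017 genes tested (Benjamini-Hochberg, threshold 0.05). All 88 members passed the filter on low counts. In TGFbi against Sham 0 of 88 members were called, where 0.00624% of all genes were called (1 gene). In RT against Sham, TGFbi+RT against Sham and Triple against Sham 0 members were called, where 0% of all genes were called in each. The smallest adjusted p of a member by edgeR's quasi-likelihood test was 0.298, 0.999, 0.207 and 0.197 in these 4 comparisons. limma-voom called 0 members in each. DESeq2 called 1 member in TGFbi against Sham (0.863% of genes), 3 in TGFbi+RT against Sham (3.18% of genes), 1 in Triple against Sham (3.88% of genes) and 0 in RT against Sham (0.00627% of genes), so its calls among members were near or below its share over all genes. In simulated data for TGFbi+RT against Sham the test recovered 19.7% of genes changed by 1 on the log2 scale and 66% of those changed by 2.

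Without calls, the members are described by where their fitted values lie. Against Sham, 67 of 88 members were below 0 in TGFbi (51.4% of all genes), 61 in RT (47.8%), 76 in TGFbi+RT (51%) and 79 in Triple (50.5%). The medians over members were -0.12, -0.13, -0.26 and -0.26 on the log2 scale, against -0.01, 0.01, -0.01 and -0.00 over all genes tested. Among the 9824 genes at or above the lower quartile of member levels, 57.7%, 51.5%, 63% and 60.4% were below 0, with medians of -0.04, -0.01, -0.10 and -0.08. The 4 comparisons share the Sham tumors, so their common direction is not independent. Without Sham 1 the member medians were -0.24, -0.21, -0.38 and -0.37. Without Sham 2, the tumor with the highest member sum, they were -0.02, -0.02, -0.13 and -0.15. Without TGFbi+RT 3 and Triple 2 they were -0.12, -0.15, -0.23 and -0.21. With the library code as a term in the fit, the RT median turned to 0.16 and the Triple median was -0.09. That term rests on Triple 1 against Triple 2 and 3, and Triple 2 had the lowest member sum of all tumors. The direction in RT thus changed when the term was added, and the cause was not tested.

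At an unadjusted p under 0.05, 9 members were lower and 0 higher in TGFbi (4.99% and 3.5% of all genes, 8.48% in either direction), and 3 lower and 0 higher in RT (2.4% and 1.79%). In TGFbi+RT 16 were lower and 0 higher (5.28% and 9.76%), and in Triple 12 lower and 0 higher (4.93% and 9.96%). As shares of the 88 members these are 10.2%, 3.41%, 18.2% and 13.6% lower. Among the 9824 genes at or above the lower quartile of member levels, 5.86%, 2.71%, 7.38% and 6.86% were lower. Members whose 3 values all lay below the 3 Sham values numbered 13 in TGFbi (7.88% of all genes), 6 in RT (6.28%), 18 in TGFbi+RT (7.61%) and 11 in Triple (7.15%). All 3 values lay above Sham in 2, 0, 0 and 1 members (7.43%, 5.77%, 10.7% and 9.41% of all genes). Among those 9824 genes, 9.4%, 6.9%, 10% and 8.9% lay below Sham without overlap. The share of members below Sham in RT was thus close to that of all genes.

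**Figure D4:**
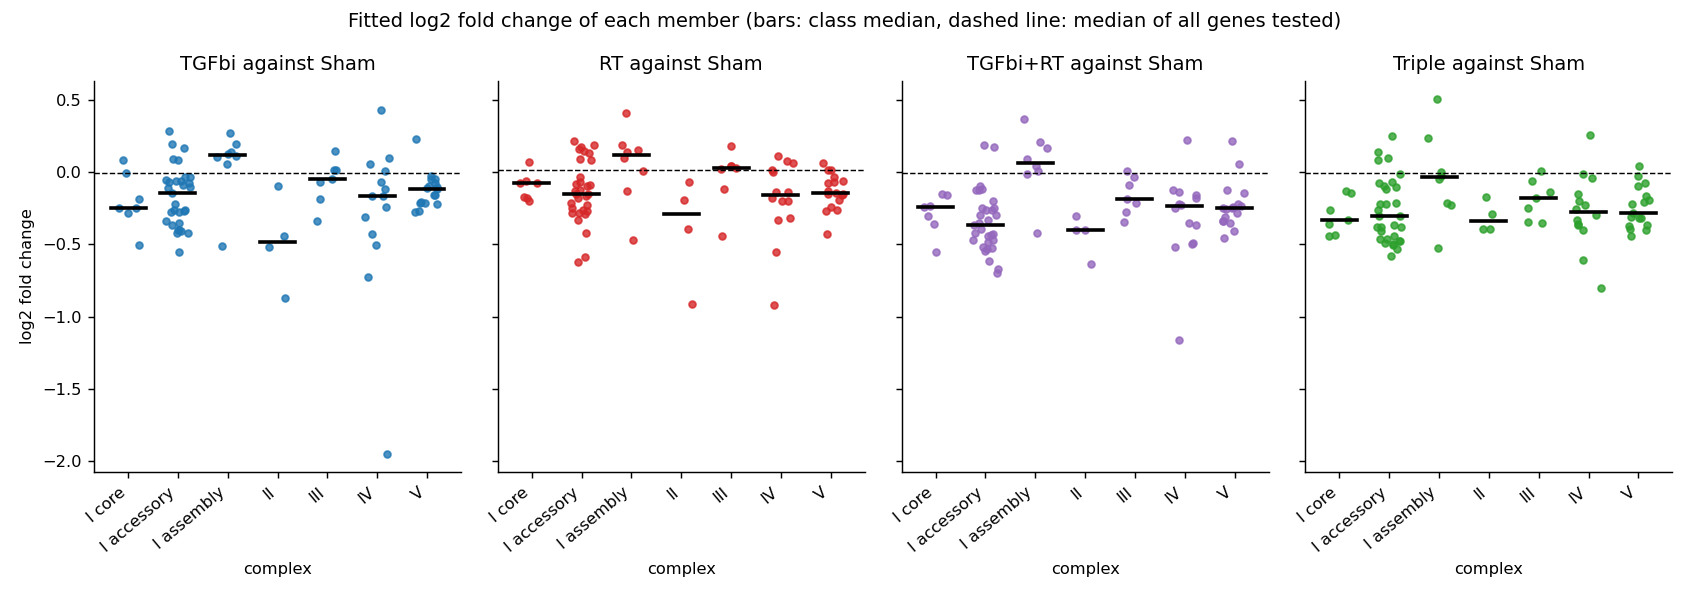
Fitted log2 fold change against Sham of each member, by class, in the 4 treated groups. Points are genes, black bars are class medians and the dashed line is the median of all genes tested. The complex I assembly factors have the highest class median in each panel (0.12, 0.12, 0.06 and -0.04), and the lowest point is Cox4i2 in TGFbi at -1.95.

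Complex I takes electrons from NADH, and its core genes encode the subunits that carry flavin and iron-sulfur clusters. Core genes lay below 0 in 6 of 7 cases in TGFbi, 6 of 7 in RT and 7 of 7 in both TGFbi+RT and Triple, with medians of -0.25, -0.08, -0.24 and -0.33. The core genes given here overlapped Sham in every treated group. Ndufs1, the large iron-sulfur subunit, had 110, 166 and 137 CPM in Sham, 132, 109 and 99.6 in TGFbi and 119, 124 and 105 in TGFbi+RT. Ndufv1, the flavin-carrying subunit that binds NADH, had 72.3, 111 and 61.1 CPM in Sham, with log2 differences of -0.00 ± 0.22 (SE) in TGFbi, -0.36 ± 0.22 in TGFbi+RT and -0.43 ± 0.22 in Triple. Ndufs3 differed by -0.25 ± 0.17 in TGFbi and -0.36 ± 0.17 in Triple, with 39.7% of its 50-base stretches shared with another gene.

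Accessory subunits surround the core and are needed for assembly and stability. Of the 31 accessory genes, 26 lay below 0 in TGFbi, 23 in RT, 29 in TGFbi+RT and 27 in Triple, with medians of -0.15, -0.15, -0.36 and -0.31. At an unadjusted p under 0.05, 2, 2, 10 and 6 of them were lower and 0 higher. These are 6.45%, 6.45%, 32.3% and 19.4% lower, against 4.99%, 2.4%, 5.28% and 4.93% of all genes. Of all genes, 3.5%, 1.79%, 9.76% and 9.96% were higher. Ndufb11 (Entrez 104130, chromosome X, 20615326 to 20617564, minus strand, GRCm38) encodes a membrane-arm subunit. It had 49.5, 59 and 51.3 CPM in Sham, 29.2, 40.1 and 40.1 in TGFbi+RT and 44.5, 33.8 and 31.9 in Triple. It had 46.2, 49.2 and 49 CPM in TGFbi, just below the lowest Sham tumor, and 49, 50 and 46.6 in RT, which overlapped Sham. The tumors that received inhibitor and radiation lay below all tumors of the other 3 groups. The log2 difference from Sham was -0.55 ± 0.16 in TGFbi+RT and -0.54 ± 0.16 in Triple (adjusted p = 0.207 and 0.197, edgeR's quasi-likelihood test), against -0.15 ± 0.16 in TGFbi and -0.13 ± 0.16 in RT. DESeq2 called both of the larger differences (adjusted p = 0.0457 and 0.0426).

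Ndufv3 showed another pattern, with all 4 treated groups below Sham. Ndufv3 (Entrez 78330, chromosome 17, 31520115 to 31531326, plus strand) encodes a small subunit of the NADH-binding module. Its Sham tumors had 53.2, 58.5 and 59.9 CPM, and the 12 treated tumors ran from 29.5 in TGFbi 1 to 50.2 in Triple 3, so none reached the lowest Sham tumor. Log2 differences were -0.55, -0.62, -0.53 and -0.58 in TGFbi, RT, TGFbi+RT and Triple, each ± 0.20, with adjusted p = 0.497, 0.999, 0.262 and 0.237 by edgeR's quasi-likelihood test. By the same fit, the difference of the combination from the sum of its parts (the interaction) was 0.65 ± 0.29 (unadjusted p = 0.0433).

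Ndufb5, another membrane-arm subunit, had 46.3, 49.4 and 51.5 CPM in Sham, 41.1, 39.5 and 30.9 in TGFbi, 36.8, 34.2 and 35.2 in TGFbi+RT and 40.1, 32.4 and 40.4 in Triple. These 3 groups lay below Sham without overlap, by -0.40, -0.47 and -0.38, each ± 0.14, and the RT tumors (40.5, 49.3 and 47.9 CPM) overlapped Sham. DESeq2 called the difference in TGFbi+RT (adjusted p = 0.0476). Ndufa3, whose promoter stretch with a YY1 match is printed above, had 13.4, 14.7 and 14.3 CPM in Sham, 11.3, 8.73 and 10.3 in TGFbi+RT and 13.7, 13.4 and 13.2 in Triple. It was lower in TGFbi+RT by 0.48 ± 0.15 on the log2 scale and differed by -0.07 ± 0.15 in Triple. Ndufa5 had 7.14, 7.95 and 6.05 CPM in TGFbi+RT, below both TGFbi (8.88, 10.8 and 10.8) and RT (8.67, 11.3 and 10.3), while its Sham tumors had 7.58, 11.3 and 9.66.

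Of the accessory genes not described so far, Ndufa6 and Ndufa13 lay below Sham without overlap in TGFbi, RT and TGFbi+RT, and the pseudogene row Ndufs5-ps in TGFbi, TGFbi+RT and Triple. In TGFbi+RT their log2 differences were -0.61 ± 0.25 for Ndufa6, -0.30 ± 0.13 for Ndufa13 and -0.70 ± 0.21 for Ndufs5-ps. Of the exon bases of Ndufa6 and Ndufa13, 60.9% and 27.5% overlapped another gene, so their reads are hard to assign. Ndufa10 had 161, 264 and 229 CPM in Sham and 117 in TGFbi+RT 3 and 102 in Triple 2, and it overlapped Sham in every group. Ndufb10 differed by 0.16 ± 0.15 in TGFbi and -0.12 ± 0.15 in TGFbi+RT. Ndufb7 was above all Sham tumors in TGFbi (11.3, 11.8 and 12 CPM against 8.17, 10.9 and 9.86). Its difference in TGFbi+RT was 0.17 ± 0.20 and turned to -0.05 without TGFbi+RT 3, whose 13.7 CPM is the highest value of the gene. Ndufa7 differed by -0.25 ± 0.19 and Ndufc2 by -0.20 ± 0.12 in TGFbi+RT, and Ndufa12 had 0.703 to 2.24 CPM in the 15 tumors.

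The 8 assembly factors did not share the lower medians of the subunits. They lay above 0 in 7 of 8 cases in TGFbi and 6 of 8 in RT and TGFbi+RT, with medians of 0.12, 0.12 and 0.06, and above 0 in 2 of 8 in Triple with a median of -0.04. None reached an unadjusted p under 0.05. Sham 1 lay low for these genes, with 7 of the 8 below their own mean. Their mean centred log2 CPM was -0.30 in Sham 1, but 0.10 in Sham 2 and 0.11 in Sham 3. The group means of 0.03 in TGFbi, 0.04 in RT and 0.01 in TGFbi+RT lay below both of these Sham tumors. Ndufaf6 was the gene below 0 in TGFbi, with 13.6, 25.1 and 16.2 CPM in Sham and 12.9, 14.6 and 10.9 in TGFbi (-0.51 ± 0.27). Ndufaf3 had 3.64, 1.88 and 3.63 CPM in Sham and 4.4, 4.83 and 3.8 in Triple. Ndufaf5, a methyltransferase-like factor, differed by 0.27 ± 0.20 in TGFbi and -0.23 ± 0.20 in Triple. No test of the difference between assembly factors and subunits was made.

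Complex II oxidises succinate, with Sdha carrying the flavin, Sdhb the iron-sulfur clusters, and Sdhc and Sdhd anchoring both in the membrane. All 4 genes lay below 0 in all 4 treated groups, with medians of -0.48 in TGFbi, -0.29 in RT, -0.40 in TGFbi+RT and -0.34 in Triple. Sdhc (Entrez 66052, chromosome 1, 171129157 to 171150603, minus strand) had the smallest p of any member in TGFbi. It had 119, 142 and 136 CPM in Sham and 99.4, 91.4 and 86.2 CPM in TGFbi. In RT it had 108, 122 and 117 CPM, in TGFbi+RT 93.4, 101 and 105, and in Triple 115, 88.5 and 121. TGFbi and TGFbi+RT lay below Sham without overlap, and RT and Triple overlapped it. The difference in TGFbi was -0.52 ± 0.13 on the log2 scale (adjusted p = 0.298, edgeR's quasi-likelihood test, and 0.0343 by DESeq2), and in TGFbi+RT -0.40 ± 0.13 (adjusted p = 0.211).

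Sdha, whose NRF1 match is printed above, had 108, 137 and 128 CPM in Sham and 96.2, 102 and 105 in TGFbi+RT, without overlap and with a difference of -0.30 ± 0.12. In TGFbi it had 117, 115 and 118 CPM, within the Sham range. Sdhb had 73, 138 and 85.6 CPM in Sham, and Sham 2 was the only tumor above 85.6. Its differences of -0.45 ± 0.20 in TGFbi, -0.39 ± 0.20 in RT, -0.40 ± 0.20 in TGFbi+RT and -0.39 ± 0.20 in Triple stood beside a high Sham 2, while Sham 1 lay inside the range of the 12 treated tumors (66.4 to 85.1 CPM) and Sham 3 just above it. Sdhd had at most 1.49 CPM in any tumor.

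Complex III passes electrons from quinol to cytochrome c. Of its 7 genes, 4 lay below 0 in TGFbi, 2 in RT, 6 in TGFbi+RT and 6 in Triple, with medians of -0.05, 0.03, -0.19 and -0.18. Uqcrh (Entrez 66576, chromosome 4, 116066965 to 116075070, minus strand), the hinge protein at the cytochrome c1 site, had the smallest p of any member in RT. It had 42, 53.2 and 41.6 CPM in Sham, 33.9, 35 and 31.9 in RT, 34.7, 34.9 and 38.6 in TGFbi and 32.4, 37.7 and 37.6 in Triple. In TGFbi+RT it had 36.5, 44.1 and 37.3 CPM and overlapped Sham, unlike either treatment alone. The difference in RT was -0.44 ± 0.13 and that in TGFbi -0.34 ± 0.13 (adjusted p = 0.999 and 0.512, edgeR's quasi-likelihood test), and the interaction was 0.56 ± 0.19 (unadjusted p = 0.0108, adjusted p = 1).

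The other complex III genes overlapped Sham in every group. Uqcrc1, a core protein facing the matrix, had 141, 210 and 196 CPM in Sham and differed by -0.35 ± 0.21 in both TGFbi+RT and Triple. The Rieske iron-sulfur protein gene Uqcrfs1 had 64, 90.3 and 84.7 CPM in Sham and differed by -0.19 ± 0.16 in TGFbi+RT. Uqcrc2, the partner of Uqcrc1, was within 0.18 of Sham in each group, and Uqcrq within 0.06.

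Complex IV reduces oxygen. Of its 14 genes, 10 lay below 0 in TGFbi and RT, and 13 in TGFbi+RT and Triple, with medians of -0.16, -0.16, -0.24 and -0.28. The largest difference of any member was that of Cox4i2 (Entrez 84682, chromosome 2, 152754173 to 152765037, plus strand), the isoform of subunit 4 known from lung and from low oxygen. Cox4i2 had 17, 11.9 and 15.4 CPM in Sham and 5.01, 2.71 and 3.72 CPM in TGFbi. RT tumors had 7.48, 6.85 and 15.9 CPM, TGFbi+RT tumors 14.4, 14.9 and 4.95, and Triple tumors 4.2, 4.22 and 17.1. All 3 TGFbi tumors lay below all Sham tumors, while each irradiated group held tumors below the Sham range and at least 1 tumor within it or, in Triple, just above it.

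The log2 difference of Cox4i2 in TGFbi was -1.95 ± 0.59 (adjusted p = 0.415, edgeR's quasi-likelihood test). In RT it was -0.55 ± 0.56, in TGFbi+RT -0.37 ± 0.56 and in Triple -0.80 ± 0.56, and the interaction was 2.13 ± 0.81 (unadjusted p = 0.0206). Within TGFbi+RT the low tumor was replicate 3, and within Triple the high tumor was replicate 3. Pericyte and contractile markers, a list of 10 genes chosen after Cox4i2 was seen, summed to 1346, 591 and 451 CPM in Sham and 542, 379 and 490 in TGFbi, and 7 of the 10 lay below 0 in TGFbi with a median of -0.27. In RT, TGFbi+RT and Triple 5, 8 and 5 of the 10 lay below 0, with medians of 0.11, -0.45 and 0.11. The median of the list was thus lower in TGFbi+RT than in TGFbi. Its sums ran higher in TGFbi+RT, at 776, 518 and 543 CPM, so the sums and the median went different ways. No marker of that list was at 0 in all tumors. The part of these cells in the Cox4i2 difference was not tested. Cox4i1, the usual isoform, had 40.6, 45.7 and 39.5 CPM in Sham and 36.8, 35.8 and 33.5 in TGFbi, a difference of -0.24 ± 0.14.

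Cox6a1, whose pair of NRF1 matches is printed above, had 44, 59.9 and 51.4 CPM in Sham, 42.3, 35.2 and 33.2 in TGFbi+RT and 41.6, 40.2 and 39.2 in Triple. Both groups lay below Sham without overlap, by -0.49 ± 0.15 and -0.36 ± 0.15 (adjusted p = 0.209 and 0.288, edgeR's quasi-likelihood test). Cox5a, a subunit on the matrix side, had 31.7, 52.1 and 43.4 CPM in Sham and 31.5, 28.9 and 29.8 in TGFbi+RT (-0.50 ± 0.19). The same gene differed by -0.50 ± 0.19 in TGFbi. Cox7a2l, which is known for joining complexes III and IV into supercomplexes, had 103, 97.3 and 92.1 CPM in Sham and 52.9 to 91.3 CPM in the 12 treated tumors, so that none reached the lowest Sham tumor. Its differences were -0.43, -0.32, -0.23 and -0.37 in TGFbi, RT, TGFbi+RT and Triple, each ± 0.16.

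Several complex IV genes stayed close to Sham. Cox6b1 was within 0.16 of Sham in every group, with an SE of 0.12. Ndufa4 differed by 0.09 ± 0.17, 0.11 ± 0.17, -0.14 ± 0.17 and -0.02 ± 0.17 in the 4 groups. Cox7b, an X-linked subunit, differed by -0.52 ± 0.27 in TGFbi+RT and overlapped Sham. Cox8a had 139, 213 and 98.4 CPM in Sham, so its spread in Sham covered most treated tumors. Cox7c was above Sham in TGFbi (3.34, 3.43 and 4.12 CPM against 1.85, 2.95 and 3.31). Cox7a2 overlapped Sham in each group. Ndufa4l2, which replaces Ndufa4 in low oxygen, had 20.8 CPM in Sham 1 but 3.19 and 4.6 in the other Sham tumors, and its differences of -0.73 ± 0.78 in TGFbi and -1.16 ± 0.79 in TGFbi+RT were within that spread.

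Complex V makes ATP. Of its 17 genes, 16 lay below 0 in TGFbi, 14 in RT, 15 in TGFbi+RT and 16 in Triple, with medians of -0.12, -0.15, -0.25 and -0.28. The counts at an unadjusted p under 0.05 were 0, 0, 1 and 1 (8.48%, 4.2%, 15% and 14.9% of all genes). Atp5a1, the alpha subunit gene and the most abundant member by counts, had 506, 684 and 632 CPM in Sham. In TGFbi it had 566, 588 and 532 CPM, in RT 473, 596 and 528, in TGFbi+RT 542, 460 and 464, and in Triple 546, 394 and 437. Every treated group overlapped Sham, since Sham 1 lay low. The difference in Triple was -0.40 ± 0.16 (adjusted p = 0.264, edgeR's quasi-likelihood test). Atp5b, its catalytic partner, had 425, 598 and 506 CPM in Sham and differed by -0.12, -0.15, -0.23 and -0.21 in the 4 groups, each ± 0.15.

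The subunit c genes overlapped Sham in every group. Atp5g3 had 136, 212 and 195 CPM in Sham and 166, 148 and 139 in TGFbi+RT (-0.26 ± 0.21). Atp5g1 and Atp5g2 differed by -0.24 ± 0.39 and 0.06 ± 0.26 in TGFbi+RT. Atp5md, a small membrane subunit needed for dimers of the synthase, had 6.86, 9.01 and 5.58 CPM in Sham and 5.47, 5.45 and 4.81 in Triple, below all Sham tumors by -0.44 ± 0.22.

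**Figure D5:**
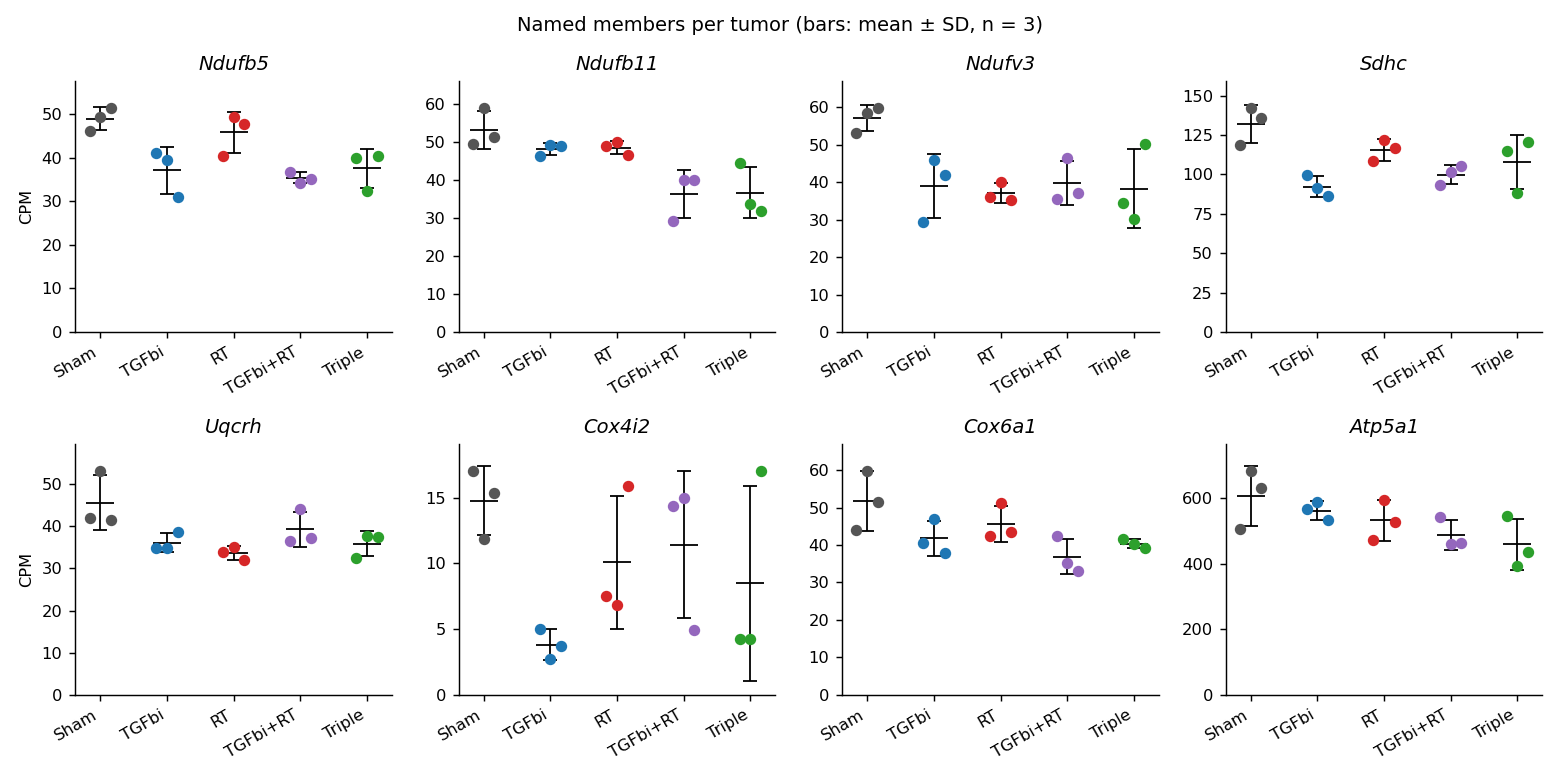
CPM per tumor of 8 members in the 5 groups, with points for tumors and bars for mean ± SD (n = 3). Ndufb11 is lowest in the groups given inhibitor and radiation, Ndufv3 is below Sham in every treated tumor, and Cox4i2 is at 2.71 to 5.01 CPM in TGFbi against 11.9 to 17 in Sham.

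The effects of adding radiation to the inhibitor, the inhibitor to radiation, and the antibody to both were compared next. In TGFbi+RT against TGFbi 0 members were called by edgeR's quasi-likelihood test (0% of all genes), 66 of 88 lay below 0 (46.3% of all genes) and the median was -0.11 against 0.03 over all genes. At an unadjusted p under 0.05, 4 members were lower (1.7% of all genes) and 1 higher (4.35%, and 6.06% in either direction), the latter being Cox4i2 (1.58 ± 0.58). All 3 TGFbi+RT values lay below TGFbi in 8 members (5.04% of all genes) and above it in 0 (6.38%). In TGFbi+RT against RT 0 members were called (0% of all genes), 71 lay below 0 (49.8%), the median was -0.14 against 0.00, and 7 members were lower and 0 higher at an unadjusted p under 0.05 (3.8% and 5.83%, and 9.62% in either direction). Against RT, 15 members lay below without overlap (8.29%) and 3 above (7.66%). Of those 7, 6 were complex I accessory genes, among them Ndufc2 (-0.35 ± 0.12), Ndufa3 (-0.41 ± 0.15) and Ndufb11 (-0.41 ± 0.16). Without the resubmitted TGFbi 3 and TGFbi+RT 3 the median against TGFbi was -0.055. Without TGFbi+RT 3 and Triple 2 these medians were -0.08 and -0.11. The library code changes between RT and TGFbi+RT, and with the code as a term the second median was -0.43. DESeq2 called 0 members in both comparisons (0.0188% and 0.395% of genes), as did limma-voom.

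In Triple against TGFbi+RT 0 members were called (0% of all genes) and 37 lay below 0 (45.3%), with a median of 0.03 for members and for all genes. Ndufa3 was the only member at an unadjusted p under 0.05 (0.41 ± 0.15, higher, where 0.681% of all genes were higher, 1.3% lower and 1.99% either), and its 3 Triple values lay above its 3 TGFbi+RT values. In all, 2 members lay below TGFbi+RT without overlap (2.88% of all genes) and 7 above (2.1%). In the test of any difference among the 5 groups 0 members were called (0% of all genes), and 8 had an unadjusted p under 0.05 (10.8% of all genes). The interaction of inhibitor and radiation gave 0 calls (0% of all genes), with 2 members lower and 4 higher at an unadjusted p under 0.05 (1.27% and 2.52%). The 4 were Uqcrh, Cox4i2, Cox7a2l and Ndufv3, and the 2 were Ndufb10 and Ndufa5. DESeq2 called Ndufb11 in the test over the 5 groups (adjusted p = 0.0424, where it called 4.11% of genes).

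In TGFbi and TGFbi+RT the mitochondrially encoded partners of these subunits lay on the other side of Sham. All 13 were above 0 in TGFbi and in TGFbi+RT, with medians of 0.81 and 0.71, while the medians were 0.06 in RT and 0.04 in Triple. In TGFbi and TGFbi+RT 11 and 8 had an unadjusted p under 0.05 (8.48% and 15% of all genes). Their summed levels were 26370, 28210 and 22290 CPM in Sham, 29360, 37750 and 68780 in TGFbi and 28450, 50480 and 45660 in TGFbi+RT. The highest of these, TGFbi 3, is a resubmitted library, and it also had the highest share of counts on the RNA Rn7sk (6.3%, against 1.54% in the lowest tumor). Leaving these genes, Rn7sk and another very abundant row out of the totals moved the member medians to -0.11 in TGFbi and -0.26 in TGFbi+RT.

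Cycs, which encodes cytochrome c, the carrier between complexes III and IV, was also above Sham. Cycs had 19, 28.5 and 24.2 CPM in Sham and 34.9, 37.6 and 30.1 CPM in TGFbi, where no tumors overlapped. The differences of Cycs were 0.52, 0.41, 0.48 and 0.49 on the log2 scale in TGFbi, RT, TGFbi+RT and Triple, with unadjusted p = 0.0125, 0.0403, 0.0198 and 0.0165. Cyc1, the complex III subunit cytochrome c1 that the symbol rule leaves out, differed by -0.28, -0.30, -0.35 and -0.48. Neither passed edgeR's quasi-likelihood test after adjustment.

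Citrate cycle genes, which feed the chain with NADH and succinate, resembled the subunits in direction. Of 16 genes, 14, 13, 16 and 16 lay below 0 in TGFbi, RT, TGFbi+RT and Triple, with medians of -0.11, -0.12, -0.34 and -0.33. An unadjusted p under 0.05 was found for 1, 0, 4 and 3 of them (8.48%, 4.2%, 15% and 14.9% of all genes). Idh3b, a subunit of the NAD-dependent isocitrate dehydrogenase, differed by -0.51 in TGFbi+RT and -0.64 in Triple. The 32 assembly factors of complexes III, IV and V that were tested had medians of 0.08, 0.05, -0.07 and -0.06, with 11, 12, 19 and 17 below 0. None of these lists had a gene called by edgeR's quasi-likelihood test in these comparisons.

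The 16 regulators of mitochondrial biogenesis had medians of -0.03, 0.03, -0.06 and -0.09. Nrf1 differed from Sham by 0.01, -0.08, -0.14 and -0.23, and Gabpa by 0.24, 0.10, -0.22 and -0.03. Ppargc1a, the coactivator of this programme, differed by 0.49 in TGFbi and 0.37 in TGFbi+RT, with 8.97 to 23.6 CPM across the tumors. Ppara, a lipid-sensing nuclear receptor in the list, differed by -1.03, and Myc by -0.34, in TGFbi. Ppara had an unadjusted p of 0.00144 there. Targets of hypoxia and glycolysis, 23 genes, were below 0 in 22, 22, 19 and 22 cases, with medians of -0.29, -0.71, -0.31 and -0.68. Of these targets 1, 16, 1 and 11 had an unadjusted p under 0.05 (8.48%, 4.2%, 15% and 14.9% of all genes).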

How the data were processed

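Whole-number counts per gene were deposited by the authors as 1 table with Entrez identifiers, exon coordinates and lengths per the file header. Per the submitters' processing notes the build was GRCm38, and the aligner, the strand setting and the treatment of reads shared by several genes are not given in the sources used here. Per the labels' protocols, libraries came from ribosomal RNA-depleted total RNA. Of the identifiers, 25275 matched a symbol, 1 further gene of the family is not analysed here, and the values of 1 member are not reported here. The reference library entered no comparison.

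Members and lists were chosen with earlier results of these data known. Genes were filtered with filterByExpr, scaled by TMM (factors 0.919 to 1.05) and fitted over all 15 tumors with edgeR 4.0.16 in R 4.3.3 (quasi-likelihood test, 1 coefficient per group, 10 residual degrees of freedom, Benjamini-Hochberg threshold 0.05). The common biological coefficient of variation was 0.364. Values ± are SE of a log2 difference unless given as SD. CPM used TMM-scaled totals, and levels between genes were divided by exon length. DESeq2 1.42.0 and limma 3.58.1 were alternatives. The fit was tested on simulated data in 3 runs over 15819 genes, which gave 4.33 false calls per run. Overlaps and shared stretches came from the deposited exons and GENCODE transcripts, which 86 members had. The interaction test and the pericyte list were added after seeing the data. Same-group tumors differed by a chi-square of 14 to 129 per gene (15 pairs), so no library was counted as a duplicate.

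Named genes are those with the smallest unadjusted p per comparison and class, the catalytic core genes, isoform families, the highest and lowest levels per class and the genes beside the minimum of 150 counts. Genes named outside this rule were chosen after their values were seen.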

Additional observations from a re-analysis of the deposited data

How the results depend on the processing

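The 3 tumors a group, a self-test that recovered 19.7% of changes of 1 on the log2 scale, and counts as low as 152 over 15 tumors limit what could be called. With DESeq2 the members called were 1 in TGFbi against Sham, 3 in TGFbi+RT against Sham, 1 in Triple against Sham and 1 in the test of any difference, against 0 with edgeR's quasi-likelihood test, and the cause was not tested. With the library code as a term the member medians were 0.16 in RT against Sham, -0.088 in Triple against Sham, -0.43 in TGFbi+RT against RT and 0.17 in Triple against TGFbi+RT, and the cause was not tested. Leaving out 1 replicate at a time gave 0 calls throughout. The member medians then ran from -0.24 to -0.02 in TGFbi against Sham, -0.21 to -0.02 in RT against Sham, -0.38 to -0.13 in TGFbi+RT against Sham and -0.37 to -0.15 in Triple against Sham, where Sham 1 and Sham 2 set the ends. They ran from -0.15 to -0.09 in TGFbi+RT against TGFbi, -0.24 to -0.10 in TGFbi+RT against RT and -0.06 to 0.08 in Triple against TGFbi+RT. For Ndufb7 in TGFbi+RT against Sham the log2 fold change of 0.17 was -0.034 without the resubmitted libraries and -0.045 without TGFbi+RT replicate 3 and Triple replicate 2, and leaving out 1 tumor gave -0.046 (without TGFbi+RT replicate 3) to 0.31 (without TGFbi+RT replicate 2). The replicate numbers did not pair the tumors: of 30 same-numbered pairs 13 correlated above 0.1 (-0.579 to 0.671). With the replicate block the calls were 0, and the medians were -0.12, -0.12, -0.28 and -0.25 against Sham, -0.11 in TGFbi+RT against TGFbi, -0.13 in TGFbi+RT against RT and 0.03 in Triple against TGFbi+RT. The Triple against TGFbi+RT median, 0.03, was below 0 without the resubmitted libraries (-0.018), without TGFbi+RT replicate 3 (-0.026) and without Triple replicate 1 (-0.063). Of the remaining values, 693 fold changes of named genes kept their direction and their side of the threshold, and 366 counts and medians, these 3 included, moved by less than the spread between replicates or within 1.5 times the count.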

Other observations

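The reference library, which belongs to no group, had 0.31% of its counts on the members, below the range of the tumors, and 2.53% on the mitochondrial chromosome, within their range. Cox6a2, the heart and muscle isoform of complex IV subunit 6a, had 8, 21 and 6 counts in the Triple tumors, against 1, 1 and 1 in Sham and at most 3 in any other tumor. Brown adipocyte markers summed to 57.5, 157 and 132 CPM in Sham and 25.7, 128 and 66.3 CPM in TGFbi. Only 1 of these 3 markers passed the filter on low counts, so the sum is not a measure of brown adipocytes. Erythroid markers summed to 296, 149 and 138 CPM in Sham and 594, 389 and 304 CPM in TGFbi. Endothelial markers summed to 511 CPM in Sham 1, against 85.8 and 118 CPM in the other Sham tumors. Testis markers summed to at most 0.768 CPM in any tumor.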
